A study of Mus musculus with 6 samples.

Results

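The genes described here are the nuclear genes of the mitochondrial respiratory chain and ATP synthase, set against each other in p45-/- and WT megakaryocytes. They were chosen by name: every mouse gene whose symbol begins with Nduf, Uqcr, Atp5 or Cox4 to Cox8, or is Sdha, Sdhb, Sdhc or Sdhd, with a probe well above background on all 6 arrays. Of 115 such symbols in the gene table, 91 were on the array, and 87 of these, with 110 probes, were well above background on every array. They are 87 of the 18211 genes tested, of which 12948 had a symbol. The 4 genes that did not reach the limit were Cox4i2, Cox7b2, Cox8b and Cox8c. The 87 genes comprised 36 of complex I, 7 Ndufaf assembly factors of complex I, 4 of complex II, 8 of complex III, 15 of complex IV and 17 of complex V.

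The cells were primary megakaryocytes, the platelet-forming cells, cultured from C57BL/6 mouse fetal liver at E13.5. Nfe2, the gene for the p45 subunit of the erythroid and megakaryocytic transcription factor NF-E2, was disrupted in the p45-/- group, and the other group was wild type (WT). Both had 3 samples, 1 from each of 3 independent experiments, and every sample was hybridised to its own single-colour Agilent array. The labels name cultured megakaryocytes as the source but whole embryos in the extraction protocol, and the contradiction was not resolved. They give no further detail on the deletion, on how many embryos made up a sample or on the purity of the cultures.

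Oxidative phosphorylation takes place in the inner mitochondrial membrane. Complex I (NADH dehydrogenase) and complex II (succinate dehydrogenase, also a TCA cycle enzyme) pass electrons to ubiquinone, complex III (cytochrome bc1) passes them to cytochrome c, and complex IV (cytochrome c oxidase) passes them to oxygen. Complexes I, III and IV pump protons, and complex V (ATP synthase) uses the gradient to make ATP. Most subunits are encoded in the nucleus, and the rest in mitochondrial DNA. Nuclear respiratory factor 1 (NRF1), the ETS factor GABP (also called NRF2) and YY1 are known to bind many promoters of these genes, and PGC-1 coactivators are known to raise their transcription. Megakaryocytes enlarge, become polyploid and pass mitochondria on to platelets.

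The promoters of many of these genes, which the choice by name did not use, hold letters of known regulators. RefSeq windows of 300 bases, 250 before and 50 after the annotated start, were available for 73 of the 87 genes in 78 windows (build GRCm38.p6). Both strands were searched for NRF1 (CGCANGCGC), YY1 (AAGATGGC) and NF-E2 (GCTGANTCA) letters. The ETS letters, as bound by GABP, were CCGGAAG. As a comparison from blood cells, the GATA letters were AGATAA, and none of the 5 motifs contains another. The following stretches run from 150 bases before to 30 bases after the start and show each kind of match in genes the results below turn on. Capitals mark the matches to NRF1, ETS or YY1 on either strand.
Cox6a1, chr5:115348929-115349108, minus strand: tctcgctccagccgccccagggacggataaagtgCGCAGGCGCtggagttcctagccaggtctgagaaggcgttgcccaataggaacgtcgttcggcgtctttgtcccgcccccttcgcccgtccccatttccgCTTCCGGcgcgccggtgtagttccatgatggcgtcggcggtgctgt
Atp5k, chr5:108434370-108434549, minus strand: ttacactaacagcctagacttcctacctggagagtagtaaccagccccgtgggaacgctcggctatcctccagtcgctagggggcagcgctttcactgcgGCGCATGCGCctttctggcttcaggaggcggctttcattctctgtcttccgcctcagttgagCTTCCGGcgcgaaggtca
Uqcrc1, chr9:108936498-108936677, plus strand: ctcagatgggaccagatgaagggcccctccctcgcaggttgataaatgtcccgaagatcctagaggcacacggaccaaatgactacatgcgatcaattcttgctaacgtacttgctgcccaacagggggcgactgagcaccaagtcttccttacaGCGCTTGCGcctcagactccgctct
Sdhb, chr4:140961121-140961300, plus strand: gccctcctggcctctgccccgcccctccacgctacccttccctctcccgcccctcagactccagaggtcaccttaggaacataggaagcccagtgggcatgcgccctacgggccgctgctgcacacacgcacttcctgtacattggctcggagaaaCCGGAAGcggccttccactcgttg
Ndufa3, chr7:3617223-3617402, plus strand: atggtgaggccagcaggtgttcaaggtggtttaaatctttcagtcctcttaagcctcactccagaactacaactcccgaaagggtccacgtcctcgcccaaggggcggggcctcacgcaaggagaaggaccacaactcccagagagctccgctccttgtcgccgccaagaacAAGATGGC
Cox6b2, chr7:4753065-4753244, minus strand: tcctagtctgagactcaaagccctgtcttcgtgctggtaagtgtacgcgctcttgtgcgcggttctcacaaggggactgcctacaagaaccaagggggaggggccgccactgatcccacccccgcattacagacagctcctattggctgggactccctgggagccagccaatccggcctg
Cox6a1 held an NRF1 match beginning at position -116 from the start and an ETS match at -16. Atp5k held a palindromic run that matched NRF1 on both strands, at -50 and -49, and an ETS match at 12 bases after the start. In Uqcrc1 the NRF1 match began 5 bases after the start, in Sdhb the ETS match 6 bases after it, and in Ndufa3 the YY1 match 22 bases after it. The Cox6b2 stretch held none of the 3.

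NRF1 letters were in 27 of the 78 windows (34.6%), against 2074 of all 32851 mouse promoter windows (6.31%). ETS letters were in 18 windows (23.1%, against 8.86% of all windows), and YY1 letters were in 10 (12.8%, against 2.75%). At least 1 of these 3 was in 46 windows (59.0%), against 16.0% of all windows. GATA letters were in 6 windows (7.69%, against 11.2%). The NF-E2 letters were in 0 of the 78 windows and in 1.19% of all windows, which says only that these letters are not in these windows. Such matches describe the sequence and are not binding sites. The comparison took all windows and was not matched for base composition.

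**Figure D1:**
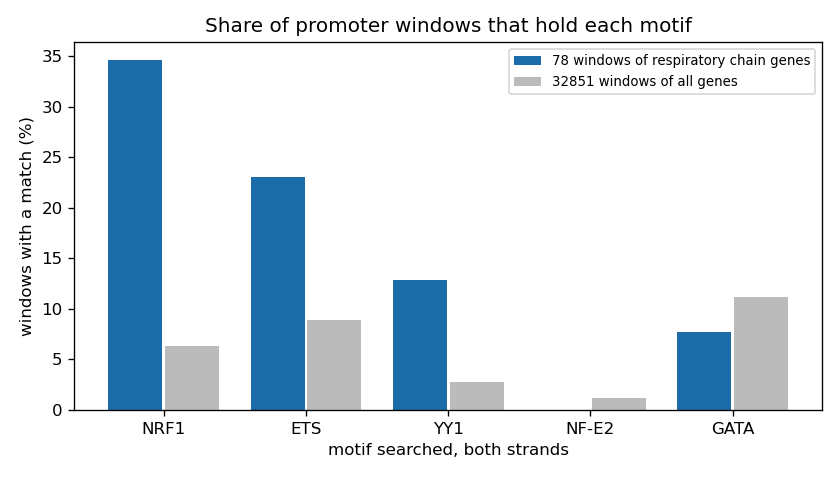
Share of 300-base promoter windows, in percent, with at least 1 match to each motif on either strand. Blue bars are the 78 windows of respiratory chain genes and grey bars are all 32851 windows. NRF1 letters were in 34.6% of the blue set and 6.31% of the grey set.

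The arrays differed in brightness. The 75th percentile of the processed signal ranged from 135 on p45-/- array 1, the dimmest, to 589 on p45-/- array 3, and the WT arrays lay between 339 and 583. Replicate 3 of both groups lay on one slide and the other 4 arrays on another. All 11 megakaryocyte markers examined were well above background on all 6 arrays. The Nfe2 probe read 4.87, 6.43 and 6.34 in p45-/- and 5.24, 6.57 and 6.33 in WT, a log2 difference of -0.17 ± 0.57 (SE). The sources used here do not say whether this probe lies in the deleted part, so it does not check the genotype, and the groups are named by their labels. All levels are log2 of the processed signal relative to the 75th percentile of its array, given in the order of replicates 1, 2 and 3. Differences are p45-/- minus WT, and levels are read within a gene, not between genes.

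No respiratory chain gene passed the test. In limma's fit with Benjamini-Hochberg adjustment at 0.05, 0 of 87 were called, as were 0 of all 18211 genes (0%), and with the replicate number as a block 0 of 87 against 5 of all genes (0.0275%). At an unadjusted p under 0.05 the counts were also 0 of 87 in both fits, against 5.95% of all genes without the block and 20.3% with it. The smallest limma p among the 87 was 0.161 (adjusted p = 0.704), for Cox6b2. The p-values measure only the spread between these samples. In bulk RNA, fewer cells of a type and less RNA per cell cannot be told apart.

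With 75th percentile scaling, 77 of the 87 genes were lower in p45-/-, with a median log2 difference of -0.13 and a range from -0.59 (Ndufa3) to 0.99 (Cox6b2). Over all genes tested the median was -0.05, and 53.5% were lower. The lower median rested on 1 array. The median level of the 87 genes was 4.19, 5.05 and 5.04 in p45-/- and 4.58, 4.98 and 4.93 in WT. Of the 87 genes, 83 had their lowest value on p45-/- array 1, as did 47.3% of all genes. Between same-numbered arrays, the median difference of the 87 genes was -0.54 in pair 1, 0.05 in pair 2 and 0.06 in pair 3, and 84, 34 and 29 genes were lower. Over all genes these medians were -0.37, 0.12 and 0.06. Without p45-/- array 1 the median difference of the 87 genes was 0.14, with 69 higher and 18 lower, and that of all genes was 0.07. Without replicate 1 of both groups the median was 0.07, with 56 higher and 31 lower, and that of all genes was 0.09.

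**Figure D2:**
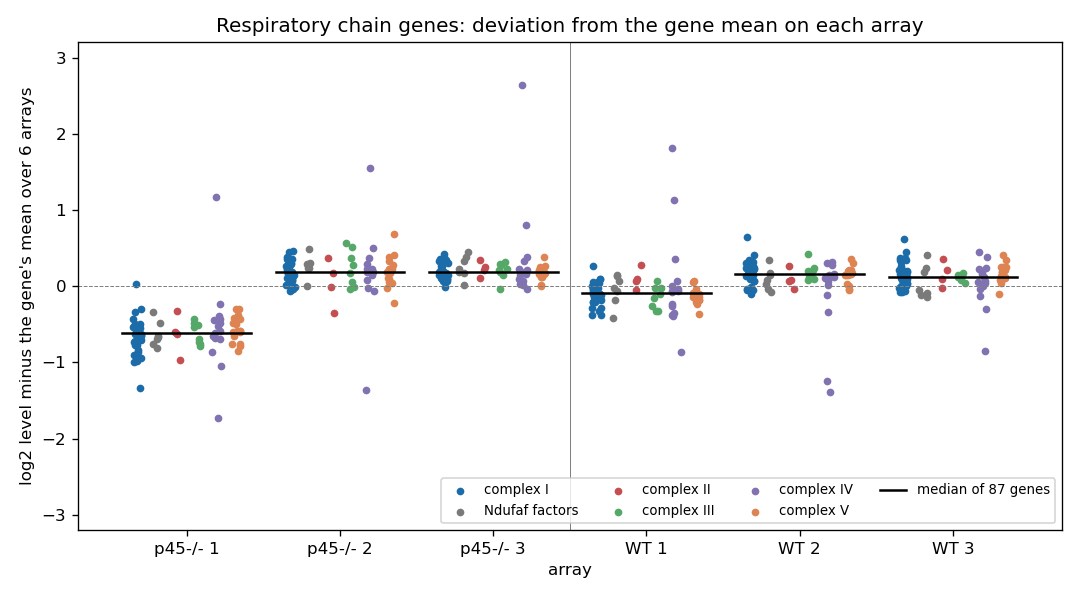
Log2 level of each of the 87 genes minus its own mean over the 6 arrays (vertical axis), by array (horizontal axis) and coloured by complex. Black bars are the median of the 87 genes. All but 4 genes have their lowest value on p45-/- array 1, and the widest points, of complex IV, include Cox7c, Cox6a2 and Cox6b2.

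The direction of the median also turned with the scaling. Quantile normalization gave a median of 0.17, with 67 genes higher and 20 lower, while that of all genes was -0.03. Median scaling gave -0.64 for the 87 genes, on arrays where all genes then had a median of -0.56. Quantile normalization left 23 of the 87 genes (26.4%) with all 3 p45-/- values above all 3 WT values, against 6.01% of all genes. With 75th percentile scaling this held for 0 of 87 genes against 4.78%, and the reverse, all 3 p45-/- values lower, held for 1 gene, Uqcrc1, against 8.44%. Genes lower in all 3 pairs numbered 19 (21.8%), against 23.6% of all genes. Those higher in all 3 pairs were Cox6a2, Cox6b2 and Ndufb4 (3.45%), against 23.3%.

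**Figure D3:**
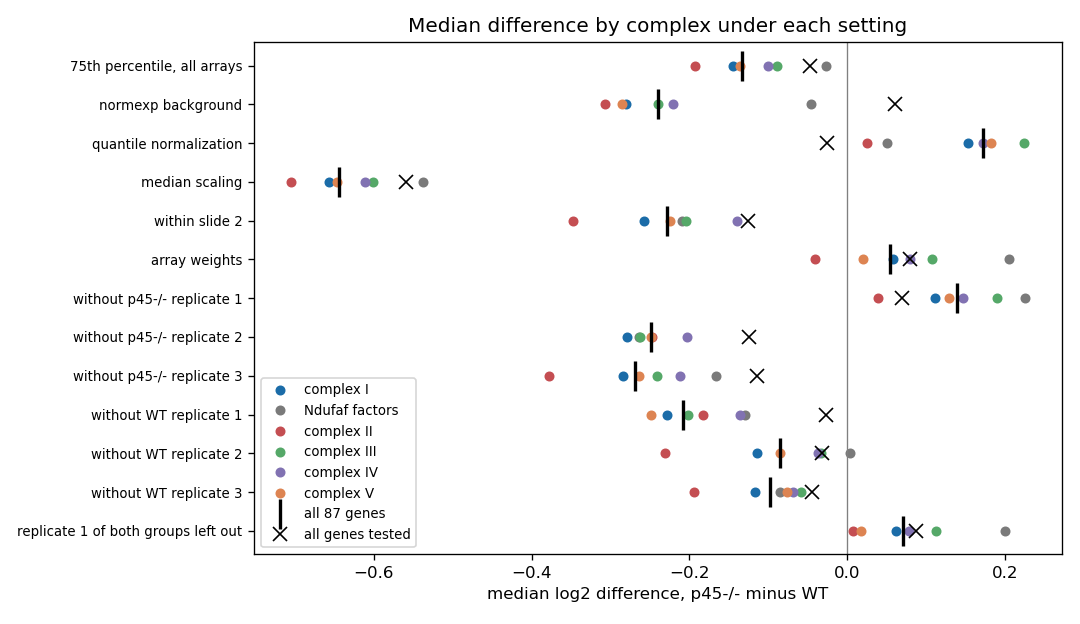
Median log2 difference, p45-/- minus WT (horizontal axis), under 13 of the settings (rows); coloured points are the complexes, black bars all 87 genes and crosses all genes tested. The median of the 87 genes is -0.13 with 75th percentile scaling, 0.17 with quantile normalization, -0.64 with median scaling and 0.14 without p45-/- array 1.

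The intervals bound the size of a difference on the 75th percentile scale. For 50 of the 87 genes (57.5%) the 95% interval lay wholly within a 2-fold change in either direction, against 3640 of the 18211 genes tested. This share is not particular to the chain. It was 64.9% for the mitochondrial ribosome, 65.5% for mitochondrial protein import and 82.1% for the cytosolic ribosome. It was 40.5% for assembly factors outside the Nduf family and 39.1% for mitochondrial carriers and outer membrane genes. For 80 of the 87 genes the interval excluded a rise of 2-fold or more, against 10172 of all 18211 genes. For 55 it excluded a fall of 2-fold or more, against 8805 of all 18211 genes. The median standard error of a member's difference was 0.34.

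**Figure D4:**
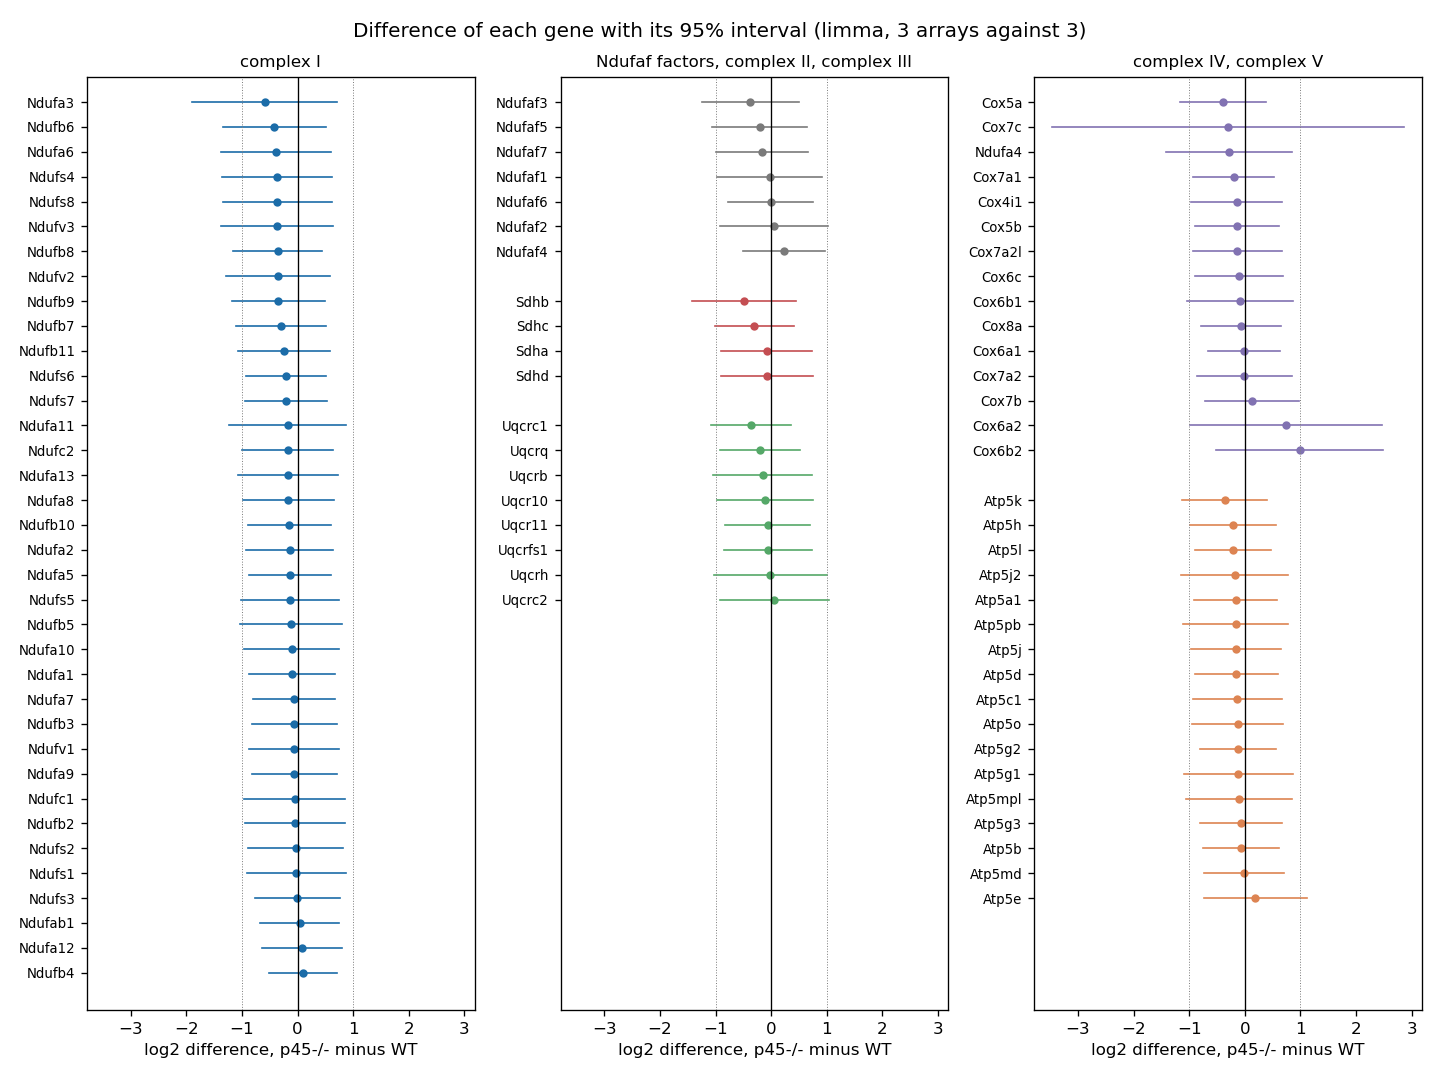
Log2 difference of each of the 87 genes, p45-/- minus WT, with its 95% interval from limma (3 arrays against 3), by complex. Dotted lines mark a 2-fold change. Every interval includes 0, and the widest is that of Cox7c.

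In complex I, 33 of 36 genes were lower on the 75th percentile scale; the median difference was -0.14, and 0.15 after quantile normalization. The 7 core subunits, which as a group hold the flavin and iron-sulphur clusters, had a median of -0.06, from -0.37 to -0.01. The 29 accessory subunits, which surround and stabilise the core, had a median of -0.15. Ndufa3, an accessory subunit, read 2.70, 4.31 and 4.22 in p45-/- and 3.66, 4.69 and 4.66 in WT. Its value on each p45-/- array lay below that on the same-numbered WT array, but the groups overlapped, since WT array 1 was also low. The difference was -0.59 ± 0.55 (SE), with limma's adjusted p = 0.731. With the block the standard error was 0.30 and limma's adjusted p was 0.337. Ndufa3 was lower under all 26 alternatives, at -1.11 to -0.07. Several of the 26, here and below, such as the blocks, leave a difference almost unchanged, so agreement under them was largely fixed in advance. Ndufb6 read 2.88, 3.74 and 4.11 in p45-/- and 3.79, 4.08 and 4.10 in WT. Its array 3 values were nearly equal, and the difference of -0.42 ± 0.39 rested on arrays 1 and 2.

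Ndufa13, an accessory subunit also known as GRIM-19, read 6.28, 7.44 and 7.20 in p45-/- against 7.02, 7.26 and 7.14 in WT. Array 1 was lower in p45-/- and arrays 2 and 3 were higher, and the difference was -0.17 ± 0.38. The complex I genes with positive differences were Ndufb4 (0.10), Ndufa12 (0.08) and Ndufab1 (0.04), all within their standard errors. The other, dimmer probes of Ndufa12 were negative (-0.05 and -0.26), as was that of Ndufab1 (-0.09). Ndufb4 read 5.11, 5.21 and 5.06 in p45-/- and 5.0, 5.07 and 5.0 in WT. It was the only complex I gene higher in all 3 pairs on this scale, and its p45-/- array 1 value was not low.

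The 7 Ndufaf factors, which assemble complex I and are not part of the finished enzyme, had a median difference of -0.03. Ndufaf3, which acts early in assembly, read 1.10, 2.16 and 1.93 in p45-/- and 1.90, 2.26 and 2.15 in WT. It was lower in every pair, with a difference of -0.38 ± 0.37 and the groups overlapping. Ndufaf4, its assembly partner, read 1.69, 2.33 and 2.42 in p45-/- and 1.85, 1.96 and 1.95 in WT, so arrays 2 and 3 were higher and array 1 lower. The difference of Ndufaf4 was 0.23 ± 0.31, and its other, dimmer probe gave 1.52, from a p45-/- array 1 value of 1.93 against -1.66 and -1.15 on p45-/- arrays 2 and 3. Ndufaf2, Ndufaf5 and Ndufaf7 had differences of 0.04, -0.21 and -0.16. The probes of Ndufaf7 differed in sign, from -0.16 to 0.52. Of the 19 genes with more than 1 probe well above background on all arrays, 4 had probes of opposite sign, and the median range between probes was 0.13.

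All 4 genes of complex II were lower on the 75th percentile scale, with a median of -0.19, which was 0.02 after quantile normalization. Sdhb, the iron-sulphur subunit, read 2.52, 3.48 and 3.75 in p45-/- and 3.59, 3.76 and 3.85 in WT. It was lower in each pair, most on array 1, and only p45-/- array 3 reached the WT range. The difference was -0.48 ± 0.39, with limma's adjusted p = 0.717, and was negative under all 26 alternatives, from -0.99 to -0.12. Sdhc, one of the membrane anchors, read 2.37, 2.35 and 2.91 in p45-/- and 2.97, 2.66 and 2.91 in WT, a difference of -0.30 ± 0.30. Sdha, the flavoprotein, and Sdhd, the other anchor, both had a difference of -0.08. For these 2 genes arrays 2 and 3 were higher in p45-/- and array 1 was lower. The other, dimmer Sdha probe differed by -0.27, and its array 2 was also lower in p45-/- (1.54 against 1.68).

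In complex III, 7 of 8 genes were lower and the median was -0.09, against 0.22 after quantile normalization. Uqcrc1, a core subunit, read 4.90, 5.40 and 5.37 in p45-/- and 5.48, 5.83 and 5.45 in WT. The highest p45-/- value lay just under the lowest WT value, without overlap. The difference was -0.37 ± 0.30, with limma's adjusted p = 0.718, and 8.44% of all genes showed the same separation. It was negative under all 26 alternatives, from -0.88 to -0.01. The other, dimmer Uqcrc1 probe read 3.30, 3.79 and 3.55 in p45-/- and 3.75, 4.08 and 3.61 in WT. Its groups overlapped, with a difference of -0.27. With the probes of each gene averaged, 0 of the 87 genes were lower without overlap, so the separation of Uqcrc1 held for its brighter probe only. Uqcrc2, the other core subunit, read 4.24, 5.49 and 5.29 in p45-/- and 4.65, 5.06 and 5.13 in WT. Its p45-/- arrays held both the lowest and the highest values, and its difference was 0.06 ± 0.41. Uqcrq, which lies in the ubiquinone-binding part of the complex, differed by -0.20 ± 0.30, and Uqcrh, the hinge protein next to cytochrome c1, by -0.01 ± 0.43.

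In complex IV, 12 of 15 genes were lower and the median was -0.10, against 0.17 after quantile normalization. Ndufa4 is counted here, since its product is a subunit of complex IV despite its name. Cox5a, a subunit on the matrix side, read 6.10, 6.88 and 6.83 in p45-/- and 6.86, 7.07 and 7.04 in WT. Only p45-/- array 2 reached above the lowest WT value, and by little, and the difference was -0.39 ± 0.32, with limma's adjusted p = 0.721. Cox6a1, the widely expressed form of subunit 6a, read 8.0, 8.42 and 8.25 in p45-/- and 8.24, 8.25 and 8.24 in WT. Its difference was -0.02 ± 0.27, with the p45-/- arrays on either side of the WT arrays. Cox6b1, the widely expressed form of subunit 6b, read 0.84, 1.67 and 1.90 in p45-/- and 1.12, 1.67 and 1.90 in WT. Arrays 2 and 3 were alike in both groups, and the difference of -0.09 ± 0.40 came from array 1.

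The isoforms known from particular tissues behaved less uniformly. Cox6b2, known from testis, read 0.97, 3.38 and 2.64 in p45-/- and 0.97, 1.5 and 1.54 in WT. It was higher than every WT array on p45-/- arrays 2 and 3 and level with WT array 1 on p45-/- array 1. The difference was 0.99 ± 0.63 (a 1.99-fold ratio), with limma's adjusted p = 0.704 and 0.258 with the block. Cox6b2 was higher under all 26 alternatives, at 0.47 to 1.67. Its adjusted p ranged from 0.0532, with array weights, to 0.998, and did not pass 0.05 in any of them. Cox6a2, known from heart and skeletal muscle, read -0.62, -1.81 and -1.82 in p45-/- and -0.66, -3.17 and -2.64 in WT. Replicate 1 was the highest and about equal in both groups, while p45-/- arrays 2 and 3 were above WT arrays 2 and 3. The difference was 0.74 ± 0.72, with limma's adjusted p = 0.740. With the block the standard error was 0.35 and limma's adjusted p was 0.315. Cox7a1, known from heart and muscle, read 0.46, 0.79 and 1.02 in p45-/- and 1.21, 0.74 and 0.92 in WT. Only pair 1 differed much, and the difference was -0.20 ± 0.30. Its common counterpart Cox7a2 differed by -0.01 ± 0.35.

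Cox7c, a small common subunit, had the widest spread of the 87 genes. It read -2.05, -1.68 and 2.33 in p45-/- and 1.5, -1.56 and -0.44 in WT. The values ran high and low within both groups, and the difference of -0.30 was far smaller than its standard error of 1.32. Among the 4 genes outside the 87, Cox4i2, the subunit 4 isoform known from lung and oxygen-poor conditions, was well above background on 3 p45-/- arrays and 1 WT array. It read -0.80, -4.58 and -5.61 in p45-/- and -4.75, -7.21 and -6.01 in WT. The high value stood alone on p45-/- array 1, and 2 of the WT values are background readings. Cox4i2 entered the test only through the p45-/- group, so its difference of 2.33 ± 1.29 (limma's adjusted p = 0.704, and 0.137 with the block) is not a measured fold against WT. With the block and median scaling, a setting that called 1590 of all 18211 genes, limma's adjusted p for Cox4i2 was 0.0088. Cox7b2 was well above background on p45-/- array 1 only, and Cox8b and Cox8c on 0 arrays.

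**Figure D5:**
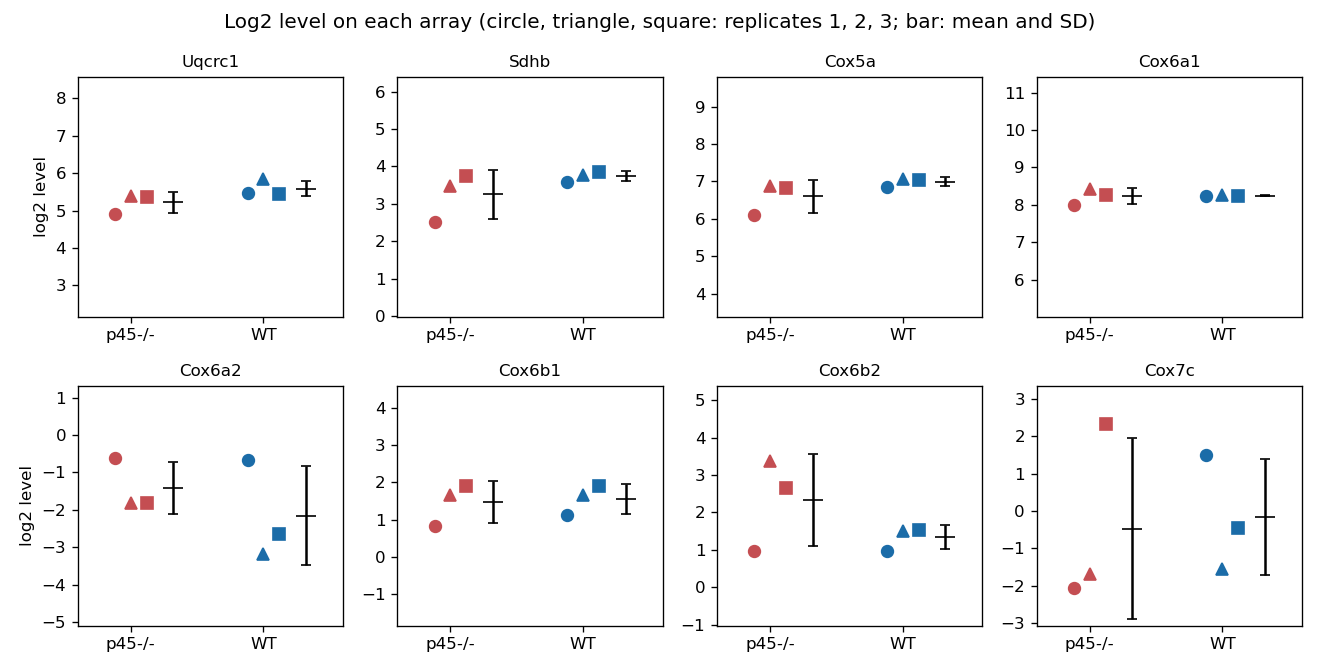
Log2 level on each array (vertical axis, relative to the 75th percentile; each panel spans the same range) of 8 genes of complexes II, III and IV. Circles, triangles and squares are replicates 1, 2 and 3, and black bars the mean and SD of 3 arrays. Uqcrc1 shows no overlap between groups, Cox6b2 is high on p45-/- arrays 2 and 3, and Cox7c scatters in both groups.

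In complex V, 16 of 17 genes were lower and the median was -0.14, against 0.18 after quantile normalization. The 5 genes of F1, the catalytic part, had a median of -0.14, and the 12 of the membrane part and peripheral stalk also had a median of -0.14. Atp5b, the catalytic beta subunit, read 7.12, 7.61 and 7.44 in p45-/- and 7.28, 7.57 and 7.51 in WT. The groups overlapped widely, and the difference was -0.06 ± 0.28. Atp5k, subunit e of the membrane part, read 3.58, 4.21 and 4.35 in p45-/- and 4.29, 4.37 and 4.57 in WT. It was lower in each pair, though p45-/- array 3 lay above WT array 1, and the difference was -0.36 ± 0.32. Atp5l, subunit g of the same part, differed by -0.21 ± 0.28, and Atp5h, subunit d of the stalk, by -0.22 ± 0.32. Atp5e, the epsilon subunit of F1, read 5.92, 7.20 and 6.69 in p45-/- and 6.33, 6.51 and 6.41 in WT. It was the only gene of the complex with a positive difference (0.19 ± 0.39), since p45-/- arrays 2 and 3 lay above all WT arrays and array 1 below them. Atp5md, a small membrane subunit, differed by -0.01 ± 0.30.

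The 87 genes moved together from array to array, and scaling each array to their own median narrowed their spread. The median pooled SD within groups of a member was 0.36 on the 75th percentile scale and 0.15 on the chain's own scale, while that of all genes was 0.50 and 0.48. On the chain's own scale 76 of the 87 genes (87.4%) had an SD under 0.25, against 23.4% of all genes. The narrowing is in part fixed by scaling to these same genes. The 87 genes were also brighter in signal, with array medians of 4.19 to 5.05 against -0.39 to -0.14 for all genes. No list of like brightness was scaled in this way, so the contrast cannot be called particular to the chain. The chain's own scale, chosen after the values were seen, shows how the complexes and genes differ from each other. It removes any change that all 87 share. The complex medians were -0.08 for complex I, -0.12 for II, -0.02 for III, -0.03 for IV, -0.07 for V and 0.04 for the Ndufaf factors. No gene was called on this scale.

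Without overlap on the chain's own scale, 10 of the 87 genes (11.5%) were lower in p45-/-, against 10.5% of all genes, and 2 (2.30%) were higher, against 4.28%. These shares are near or below the background. Relative to the chain, Sdhb read -1.67, -1.57 and -1.29 in p45-/- and -1.0, -1.22 and -1.08 in WT, a difference of -0.41 ± 0.20. Cox5a read 1.91, 1.83 and 1.78 in p45-/- and 2.28, 2.09 and 2.11 in WT, a difference of -0.32. For both genes every p45-/- value lay below every WT value, array 1 included. Ndufb6 (-0.35), Ndufaf3 (-0.31) and Atp5k (-0.30) were also separated, as were Ndufa6, Ndufb7, Ndufb8, Ndufb9 and Ndufb11, which are named after their values were seen. The 2 higher genes were Cox6b2 (1.06) and Ndufaf4 (0.30). Ndufaf3 (-0.31 ± 0.18) and Ndufaf4 (0.30 ± 0.19) had opposite signs on this scale, and limma's adjusted p was 0.771 for both. Uqcrc1 was not separated there, since p45-/- array 1 (0.71) lay above WT array 3 (0.52).

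The differences of genes with and without the promoter letters were not tested against each other. The median difference was -0.14 for the 26 genes with NRF1 letters and -0.13 for the 47 without, -0.08 for the 18 with ETS letters and -0.14 for the 55 without, and -0.19 for the 10 with YY1 letters and -0.12 for the 63 without. The genes with YY1 letters ran from -0.59 to -0.05 and those without from -0.48 to 0.99. The genes encoding these factors, named for their role and not by their values, did not pass the test. Nrf1 differed by -0.15 ± 0.27, Gabpa, the DNA-binding subunit of GABP, by -0.28 ± 0.37, and Yy1 by -0.20 ± 0.36.

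Of 16 regulators of mitochondrial genes tested, 11 were lower and 0 were called, with or without the block. Ppargc1b, the coactivator PGC-1 beta, read 0.80, -0.59 and -0.77 in p45-/- and -0.96, -1.48 and -1.49 in WT. Every p45-/- value lay above every WT value, and p45-/- array 1 stood highest. The difference was 1.12 ± 0.48, with limma's adjusted p = 0.704 and 0.146 with the block. Sirt3, a mitochondrial deacetylase that acts on respiratory chain subunits, read 2.23, 3.51 and 3.26 in p45-/- and 3.61, 4.22 and 3.92 in WT. Its groups did not overlap either, and the difference was -0.92 ± 0.42, with limma's adjusted p = 0.704. Across 26 alternatives Ppargc1b stayed positive (0.61 to 1.41) and Sirt3 negative (-1.43 to -0.53). Ppargc1a (PGC-1 alpha) and Ppara had differences of 2.03 ± 1.25 and 2.5 ± 1.46, both with their highest value on p45-/- array 1 (-0.42 and 0.57), against -4.73 and -3.91 on p45-/- array 2. Both were well above background on 3 p45-/- and only 2 WT arrays, so they entered the test through the group where they read high, and these differences rest partly on WT signals near background. With the block and median scaling, a setting that called 1590 of all 18211 genes, both were called. No other gene of these lists was called under any setting run.

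The other mitochondrial lists had 0 called genes with 75th percentile scaling, with or without the block. Of 37 assembly factors outside the Nduf family, 30 were lower, with a median of -0.15. Sdhaf2, which helps attach flavin to Sdha, differed by -0.49 ± 0.38, and Cox18, which inserts a complex IV subunit into the membrane, by -0.37 ± 0.30. Of 15 electron carriers and related genes 9 were lower (median -0.04), including Etfa, an electron transfer flavoprotein subunit, at -0.54 ± 0.33, and Dhodh, which links pyrimidine synthesis to ubiquinone, at -0.30 ± 0.34. For mitochondrial DNA replication and transcription, 7 of 11 were lower (median -0.04), with the helicase Twnk at 0.41 ± 0.29 and the rRNA methyltransferase Tfb1m at -0.42 ± 0.34. Of 18 TCA cycle genes 15 were lower (median -0.09), with Suclg2, a succinyl-CoA ligase subunit, at -0.40 ± 0.30. Pcx, pyruvate carboxylase, was higher and without overlap, at 0.41, 0.13 and 0.33 in p45-/- and -0.65, -0.38 and -0.40 in WT. Its difference was 0.77 ± 0.27, with limma's adjusted p = 0.704, and p45-/- array 1 did not stand apart.

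Of 77 mitochondrial ribosomal protein genes 53 were lower (median -0.08), and Mrpl14 and Mrps18c differed by -0.49 ± 0.32 and -0.41 ± 0.32. Of 29 protein import genes 18 were lower (median -0.04), while Timm10 and Timm8a1, chaperones of the intermembrane space, differed by 0.60 ± 0.29 and 0.36 ± 0.28. Of 23 mitochondrial carriers and outer membrane genes 16 were lower (median -0.15), with the oxoglutarate carrier Slc25a11 at -0.52 ± 0.29 and the carnitine carrier Slc25a20 at -0.63 ± 0.38. Of 56 cytosolic ribosomal protein genes 42 were lower (median -0.07), with Rpl4 and Rps6 at -0.42 ± 0.30 and -0.37 ± 0.31. In pair 1 the median was -0.69 for the other assembly factors, -0.56 for the mitochondrial ribosome and -0.17 for the cytosolic ribosome, against -0.54 for the respiratory chain. In pair 3 these medians were 0.15, 0.20, -0.03 and 0.06. The pair 1 median was -0.32 for protein import, and among lists that are not mitochondrial it was -0.74 for the stromal and -0.73 for the macrophage markers, against -0.37 over all genes. Differences between lists in pair 1 were not tested. The 26 mitochondrially encoded names matched 0 probes by name, and those genes were not analysed here.

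Several marker lists of other cells differed in level between the groups. Of 16 erythroid markers, 14 were higher in p45-/- with a median of 1.97, and 8 were higher without overlap, against 4.78% of all genes. Their summed linear signal, relative to the 75th percentile, ran from 178 to 1013 in p45-/- and from 119 to 373 in WT. Epb42, Rhag and Ermap among them were well above background on no more than 5 arrays. They entered the test through a single group, and these counts, the median and the sums include them. The same holds for the mast cell markers Tpsb2 and Ms4a2. Only 61 of the 66 markers remained where every array had to be well above background. All 10 hepatoblast markers tested were higher (median 0.94, but -0.17 in pair 1, sums of 54.1 to 189 against 43.1 to 73.8), with defining Hnf4a and Ttr well above background on only 2 and 3 arrays. Of 9 stromal markers 8 were higher (median 0.56, but -0.74 in pair 1, sums of 27.7 to 54.7 against 47.3 to 54.1). All 7 neutrophil markers were lower (median -0.78, sums of 485 to 978 against 608 to 1122), and 9 of 11 megakaryocyte markers were lower (median -0.37, sums of 955 to 2005 against 1157 to 2009). Of 7 macrophage markers 3 were higher (median -0.0013, sums of 70.3 to 102 against 62.8 to 119), as were 3 of 6 mast cell markers (median -0.21, sums of 2.47 to 13.6 against 7.82 to 23.4). None of the 66 markers tested passed limma's test with 75th percentile scaling, with or without the block. With array weights 9 of the 66 markers passed, against 505 of all 18211 genes. With the block and normexp 9 passed, against 262 of all genes, and with the block and median scaling 13, against 1590. Most of the markers that passed were erythroid. Their part in the respiratory chain values was not tested.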

How the data were processed

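Per the labels, total RNA was amplified, labelled with Cy3 and hybridised to single-colour Agilent arrays, 1 for each of 3 p45-/- and 3 WT samples. Per the file headers, the deposited intensity of each spot was extracted with Agilent Feature Extraction 10.7.3.1 and is background-subtracted, detrended and on a linear scale; the submitters' processing notes name version 10.1. The deposited value table holds the same intensities, with a largest difference of 0.497%; its column medians run from 20.9 to 42.0, and with 1 channel there is no direction to settle.

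Log2 values were taken from the deposited intensity and each array's 75th percentile over non-control probes was subtracted. Control and flagged spots (32 to 80 per array) were left out, and 0 spots were saturated. A probe was kept where every array of either group read it well above background, and each gene took its probe with the highest mean. Accessions were matched without versions to RefSeq genes of GRCm38.p6, for names only: 26690 of 41174 probes had a symbol and 14484 had none. Groups were compared by two-sided limma tests (version 3.58.1, lmFit then eBayes, under R 4.3.3), adjusted by Benjamini-Hochberg over 18211 genes, with 4 residual degrees of freedom. An exact permutation test of 3 against 3 cannot go below 0.1. The number of arrays limits the precision. The code was tested on simulated data.

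Same-numbered arrays deviated together from their group means (correlations of 0.647, 0.589 and 0.270), all above the limit of 0.1, although p45-/- array 3 correlated more with WT array 2 (0.616) than with its own number. By that limit the numbers count as pairs, a decision from the data, since the labels are silent on it. The fit reported first has no block, and standard errors and intervals come from fits without a block unless stated. A second fit blocks on the number (2 residual degrees of freedom) and is printed for the main counts and selected genes. With this block the median standard error of the 87 genes was 0.30, against 0.34 without it. A block changes the standard error but leaves a difference almost unchanged. The value table and other probe filters also left the median difference of the 87 genes almost unchanged. Agreement across these settings was therefore largely fixed in advance. Alternatives were a replicate block, a slide block, slide 2 alone, normexp background correction (offset 50, on median signals), quantile normalization, median scaling, the value table, other probe filters and summaries, array weights and arrays left out; 8 more were added after seeing the data.

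The named genes follow a rule: in each complex and among the Ndufaf factors, the 2 genes with the smallest p, the 2 most negative, the 2 most positive and the one with the highest mean signal, a choice only and no comparison of levels; all of complex II; tissue isoforms with their counterparts; genes without overlap; and 2 genes of each other list. Others are named by role or by count. The members and lists were chosen with earlier results of these data known.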

Additional observations from a re-analysis of the deposited data

How the results depend on the processing

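No respiratory chain gene was called under any of the 26 alternatives (18 planned, 8 added after seeing the data), and the smallest limma adjusted p of the 87 genes was 0.0532, with array weights. Over all genes, 0 were called in the fit described above. The replicate block gave 5, also on the value table, 262 with normexp and 1590 with median scaling, but 0 with quantile normalization and 0 on the chain's own scale. Median scaling alone gave 10, array weights 505, and leaving out replicate 1 of both groups 18, also on the scale of the chain's median, but 0 with the block. Leaving out 1 array at a time gave 0 to 1, the 1 without WT replicate 1. With the replicate block and median scaling, 2 genes of the other lists (Ppargc1a and Ppara) and Cox4i2 were called. The block on the 75th percentile scale changed no call of the genes named.

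The median difference of the 87 genes was -0.13. It reversed to 0.17 with quantile normalization, with or without the replicate block, where all genes had -0.03. With array weights it turned to 0.054, below the 0.079 of all genes. Without replicate 1 of both groups it was 0.071, with or without the block, below the 0.087 of all genes. It was -0.64 with median scaling, with or without the block, as all genes shifted to -0.56. Leaving out 1 array at a time it ran from -0.27 to 0.14, above 0 only without p45-/- replicate 1. Without reversal it was -0.24 with normexp, where all genes had 0.06, and -0.23 within slide 2. The weight of p45-/- array 1 was 0.098, the lowest of the 6. The cause was not tested.

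The count of the 87 genes without overlap was 1 (1.15%, against 13.2% of all genes, both directions together). With the probes of each gene averaged it was also 1, but in the higher direction (1.15% against 13.7%). It was 10 within slide 2 (11.5% against 29.4%), 23 with quantile normalization (26.4% against 14.0%), 0 with median scaling (against 13.9%) and 12 on the chain's own scale (13.8% against 14.7%), the same with the block where one was fitted. Without replicate 1 of both groups it was 41 (47.1% against 55.9%), with or without the block, and 35 on the chain's own scale (40.2% against 55.9%). Leaving out 1 array at a time it ran from 1 to 29, the 29 without p45-/- replicate 1 (33.3% against 27.4%). It was 12 without WT replicate 1 (13.8% against 38.3%) and 10 without p45-/- replicate 3 (11.5% against 24.9%). It was 2 without p45-/- replicate 2 (2.3% against 20.8%) and 2 without WT replicate 2 (2.3% against 16.8%). Of 1300 values of the 50 genes that the naming rule gives over the alternatives, 1170 stayed within 1 SD, 130 moved and 0 passed the threshold. Differences under a block could hardly move, since a block changes only the standard error. Signal over background limits genes such as Cox4i2, Ppargc1a and Ppara, which lie outside these 50 and were not well above background on every WT array.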

Other observations

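Slc25a37, the mitoferrin that imports iron into mitochondria for haem and iron-sulphur clusters, was the carrier with the largest positive difference on the 75th percentile scale. It read 4.66, 2.58 and 2.44 in p45-/- and 2.98, 2.17 and 1.81 in WT, a difference of 0.91 ± 0.67, and it was chosen after its values were seen. The p45-/- value was higher in every pair, as for 23.3% of all genes, and the groups overlapped. Limma's adjusted p was 0.704, and 0.232 with the block.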
